A study of Mus musculus with 2 samples.

Results

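Serotonin receptors are the proteins through which serotonin, released in the cortex by axons of raphe neurons, acts on its target cells. The genes described here are Htr1a, Htr1b, Htr1d, Htr1f, Htr2a, Htr2c, Htr3a, Htr4, Htr6 and Htr7. They were taken by name from the mouse genes on the arrays, 10 of 37074 names in all, of which 20660 were gene symbols and the rest identifiers of the array design without a symbol. The selection rule used names alone, with earlier results of these data known. RNA of the prefrontal cortex (PFC) of male C57Bl/6 N sea mice was hybridized to 2 one-color Agilent arrays. One array held a pool of the control group (C group), which had ordinary care, and the other a pool of the chronic mild stress group (CMS group). Mice were 9 to 10 weeks old at the start and the stressors ran for 4 weeks, with tissue taken on the next day. Control mice were housed in groups and CMS mice singly, so effects of housing and of the stressors cannot be told apart. The series gives 7 mice per pool, and the methods a larger group for arrays and PCR together. With 1 array per group there is no spread between mice, no test between the groups was made, and every ratio below compares the 2 pools.

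Most serotonin receptors are G protein-coupled receptors. The type 1 receptors act through Gi/o proteins, which lower cyclic AMP and open inward rectifier potassium channels, the type 2 receptors act through Gq and phospholipase C, and types 4, 6 and 7 act through Gs, which raises cyclic AMP. The type 3 receptor is the exception, a cation channel opened by serotonin. In the PFC these receptors are known on pyramidal cells, on interneurons and on incoming axons, and several of them are targets of antidepressant and antipsychotic drugs.

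The ratios of the serotonin receptors lay on both sides of 0. Of the 10 genes, 9 had a ratio, and 1 of these, Htr4, passed the 2-fold limit of the study, being lower in the CMS group. Across all 27117 names with a ratio, 2.58% passed 2-fold in either direction with 1.99% higher and 0.59% lower. The median log2 ratio of CMS over C was -0.01 over the 9 genes and -0.03 over all names. Of the 9, 4 lay above 0 and 5 below, and 5 differed from 0 by more than 0.13, the SD between repeated spots. Over all names the quartiles of the log2 ratio were -0.13 and 0.07. The share of all names past the SD was not counted, so the count of 5 cannot be set against it. The genes farthest from 0 among those well above background in both pools were Htr1a, Htr3a and Htr2a on the higher side, with log2 ratios of 0.40, 0.36 and 0.32, and Htr2c on the lower side, with -0.40. In a tissue pool, fewer cells that carry a receptor and less of its RNA per cell cannot be told apart.

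Values are given here as scaled signals, that is, the scanner's background-subtracted signals brought to a common array mean of 2500. Signals of different probes cannot be set against each other, because each probe has its own brightness. The error after ± is the scanner software's own estimate for that spot (n = 1 spot) and covers the array alone. Log2 ratios carry the error that follows from both spots. A second measure of error came from 342 probes printed several times on each array, whose log2 ratios had an SD of 0.13 between spots of 1 probe. This SD pools probes of any signal well above background, so it is not matched to receptor spots of low signal. The last measure was the middle 95% of log2 ratios among all probes of similar signal, within 0.25 on the log2 scale. By construction 5% of probes lie outside it. The receptors had 13 probes, each with 1 spot, and no receptor spot was marked as an outlier. Detected, that is well above background, in both pools were 9 probes of 8 genes, 1 probe was so in the C pool alone, and 3 probes in neither. The scanner judges each spot against its own background, and the dimmest spots it placed well above background had scaled signals of 17.8 in control and 17.6 in CMS mice. The 308 negative control spots had a median scaled signal of 4.29 and 4.20.

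**Figure D1:**
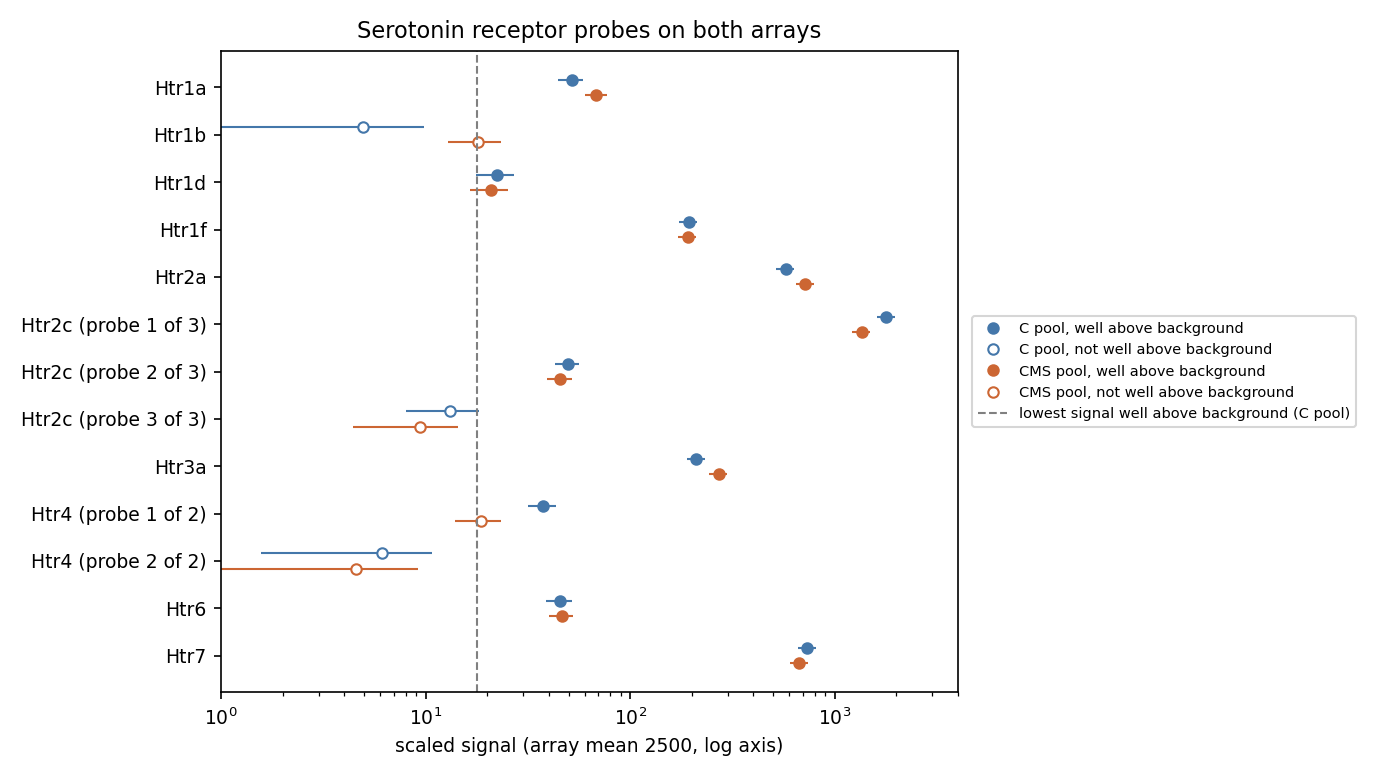
Scaled signal of the 13 probes of the 10 receptor genes (log axis) in the C pool (blue) and the CMS pool (orange), with the scanner's error as bars, some of which run past the left edge at 1. Open circles are signals not well above background, and the dashed line is the dimmest signal detected in the C pool, 17.8. The circles of the 2 pools lie close together for most probes and apart for Htr4 probe 1, which falls from 37.5 to the level of the line, and for Htr1b, which is dim in both pools.

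Among the receptors that act through Gi/o, Htr1a was the one with the highest ratio. Htr1a encodes the 5-HT1A receptor, which is both the autoreceptor of raphe neurons and an inhibitory receptor of cortical neurons. Its probe (NM_008308) read 51.7 ± 7.15 in control and 68.4 ± 8.41 in CMS mice, which gives a log2 ratio of 0.40 ± 0.27, or 1.32-fold. This is larger than both error estimates of the arrays, but it lies inside the middle 95% of probes of similar signal, which ran from -0.62 to 1.45. Of all names, 94% had a lower log2 ratio. It was 0.23 without scaling, within the scanner error. With normexp background correction and quantile normalization it was 0.19. That method shrinks ratios of probes of low signal, and the scanner error was not worked out for its values.

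Htr1f, the receptor through which lasmiditan acts in migraine, had nearly the same signal in both pools. It read 193 ± 19.7 in control and 191 ± 19.5 in CMS mice (NM_008310), which gives a log2 ratio of -0.01 ± 0.21. Lying this near 0, it changed sign with the scaling or normalization of the arrays. Htr1d, a presynaptic receptor and a target of the triptans, lay just above background (NM_008309), with 22.2 ± 4.65 in control and 20.9 ± 4.49 in CMS mice. Its log2 ratio was -0.09 ± 0.43, so that a difference smaller than this error was not detectable at this signal.

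Htr1b encodes the 5-HT1B receptor, the autoreceptor on serotonergic axon terminals and also a brake on transmitter release from other axons. Its only probe (NM_010482) was not well above background in either pool. The scaled signal was 4.91 ± 4.93 in the C pool, the level of the negative control spots, and 18.1 ± 5.18 in the CMS pool. Before background subtraction, the median pixel of the spot equalled its local background in the C pool, with 50 and 50, and stood at 58 over 38 in the CMS pool. Since neither spot passed the detection flag, no fold was computed for Htr1b.

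The pair of receptors that act through Gq had ratios of opposite sign. Htr2a encodes the 5-HT2A receptor, the main excitatory serotonin receptor of cortical pyramidal cells and the target of hallucinogens. Its probe (NM_172812) read 577 ± 57.9 in control and 718 ± 71.9 in CMS mice, which gives a log2 ratio of 0.32 ± 0.20, or 1.24-fold. The upper end of the middle 95% of 1817 probes of similar signal was 0.3146, so Htr2a, with 0.3152, lay just outside it. Without scaling the log2 ratio was 0.14, within the error of the spot.

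Htr2c encodes the 5-HT2C receptor, whose transcript is edited by adenosine deaminases and which is also very abundant in the choroid plexus. It was measured by 3 probes (NM_008312). The brightest read 1789 ± 179 in control and 1357 ± 136 in CMS mice, which gives a log2 ratio of -0.40 ± 0.20, or 1.32-fold lower in CMS mice. This was below the middle 95% of 1604 probes of similar signal, which ran from -0.25 to 0.26, and 4.95% of all names had a lower log2 ratio. The second probe read 49.5 ± 6.63 and 45.6 ± 6.24, a log2 ratio of -0.12 ± 0.28, inside the range of its own neighbors in signal. The last probe, with 13.1 and 9.39, was not well above background in either pool. The probes with a ratio thus had the same sign, but the dimmer one was within its error of 0, and the mean of both was -0.26. Since the choroid plexus carries much Htr2c, its markers were measured beside it. Of 10 choroid plexus markers, 8 had a ratio, and their median was 0.18. There were 6 detected in both pools, 2 in the CMS pool alone, and Kcne2 and Calml4 in neither. Ttr, a choroid plexus marker that liver also makes, rose more than 2-fold, with 3.38, and accounts for most of the rise of the summed signal of this list from 1373 to 5642.

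**Figure D2:**
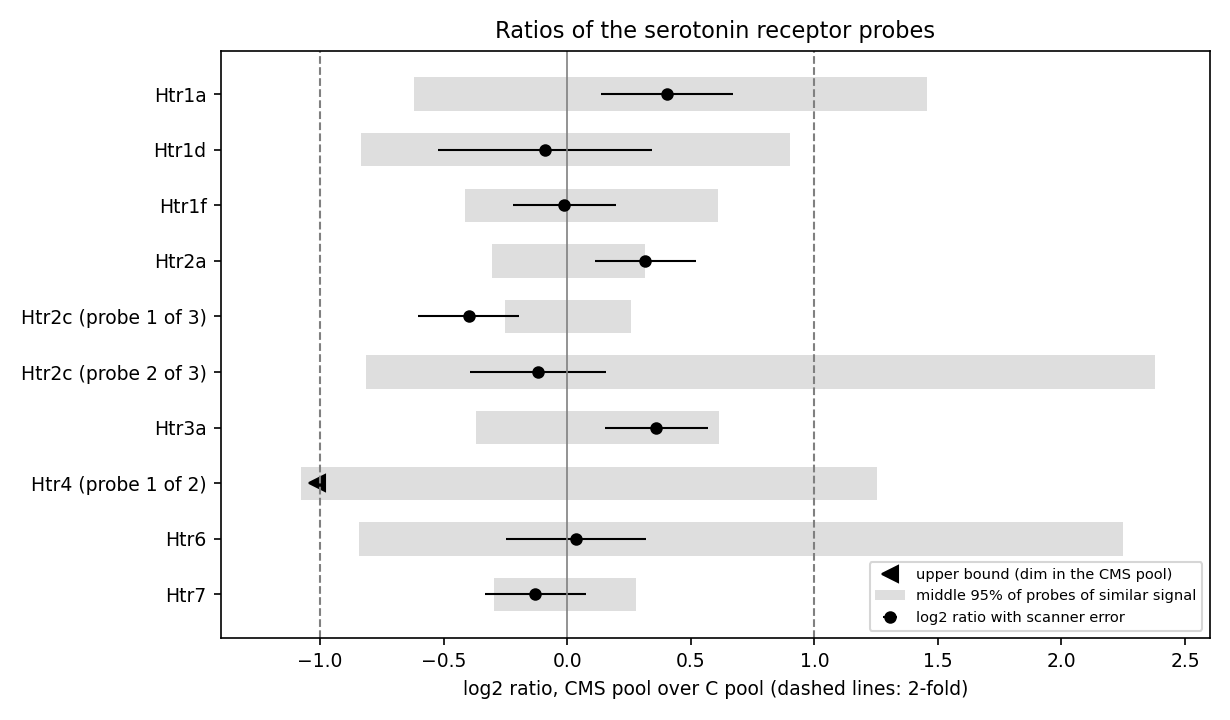
Log2 ratio of CMS over C for the 10 receptor probes with a ratio (points, bars are the error from the scanner's estimates), over the middle 95% of log2 ratios of probes of similar signal (gray bands). The arrow is Htr4, which was dim in the CMS pool, at the plain ratio of its spots and drawn without its error of 0.43. The legend calls the arrow an upper bound, but the value is no bound. The dashed lines mark 2-fold. Htr2c probe 1, at -0.40, lies below its band, Htr2a just above the upper edge of its band, and the other points inside theirs.

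Htr3a encodes the subunit that the 5-HT3 receptor channel cannot do without, and in cortex it marks interneurons of the superficial layers. Its probe (NM_013561) read 211 ± 21.6 in control and 271 ± 27.4 in CMS mice. The log2 ratio was 0.36 ± 0.21, or 1.28-fold, above both error estimates of the arrays and inside the middle 95% of probes of similar signal, from -0.37 to 0.61. It was 0.19 without scaling, within the scanner error. With normexp background correction and quantile normalization it was 0.20, a value for which the scanner error was not worked out. None of the markers of interneurons that carry Htr3a was past 2-fold. The 6 listed genes, all well above background in both pools, had a median log2 ratio of -0.10. They ran from -0.40 for Reln, which encodes a secreted matrix protein, to 0.12 for Npas1, a transcription factor of interneurons. Reln had a low signal, 54.7 in control and 41.4 in CMS mice, and the scanner error of its ratio was not worked out.

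Of the receptors that act through Gs, Htr4 fell in the CMS group to a signal that no longer passed the detection flag. Htr4 encodes the 5-HT4 receptor, which raises the firing of pyramidal cells and is abundant in striatum and hippocampus. Its brighter probe (NM_008313) read 37.5 ± 5.84 in control and 18.6 ± 4.72 in CMS mice, where it was not well above background. The signal of this probe was thus 2.02-fold lower in CMS mice, with a log2 ratio of -1.01. That is the plain ratio of both spots and no minimum of the fold, because 18.6 lay above the lowest signal detected in CMS mice, 17.6. The scanner error of this ratio was 0.43, so it spans the 2-fold limit. The median pixel of the spot was 89 over a local background of 42 in the C pool and 60 over 40 in the CMS pool. The other probe of Htr4 (also NM_008313) read 6.14 ± 4.57 and 4.57 ± 4.58, near the negative control spots in both pools, and gave no ratio, so the fall rests on 1 spot per array.

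The place of Htr4 past 2-fold depended on the processing. With each array scaled to its 75th percentile the log2 ratio was -0.99, and with normexp background correction and quantile normalization it was -0.41. The choices on filter, bound and probe could not move the value of its single spot. Among all names, 701 were detected in control mice alone, and 116 of these, 16.5%, were past 2-fold lower. Htr4 lay inside the middle 95% of probes of similar signal, whose lower end was -1.08. Of 9 striatal markers, all with a ratio, none passed 2-fold lower and the median was -0.17. Of these markers, 5 lay below 0 and 4 above, Drd2 included. Penk, the brightest of the list, read 12144 in control and 10010 in CMS mice, with a log2 ratio of -0.28, the lowest of the list. Adora2a, the adenosine receptor of striatal neurons, read 182 and 161. Drd2, the dopamine D2 receptor, read 19.0 and 32.9 and was above background in the CMS pool alone. The plain ratio of its spots was 1.73-fold higher there.

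The other Gs-coupled receptors had ratios within their error. Htr7 encodes the 5-HT7 receptor, which takes part in circadian timing and in the firing of thalamic and cortical neurons. It read 736 ± 73.7 in control and 673 ± 67.4 in CMS mice (NM_008315), which gives a log2 ratio of -0.13 ± 0.20. Htr6, found mainly on the primary cilia of neurons, read 45.3 ± 6.37 in control and 46.4 ± 6.30 in CMS mice (NM_021358), which gives a log2 ratio of 0.04 ± 0.28. Htr6 also lay so near 0 that its sign depended on the scaling.

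Taken by class, the Gi/o receptors with a ratio ran from -0.09 to 0.40, the Gq receptors from -0.40 to 0.32 and the Gs receptors from -1.01 to 0.04. None of these classes had all of its measured genes past an error estimate in 1 direction. Of the 8 genes well above background in both pools, 4 (Htr1a, Htr2a, Htr2c and Htr3a) differed between the pools by more than the scanner error of the ratio, which ran from 0.20 to 0.43 over the probes with a ratio. Without scaling, Htr2c alone of these 4 did so. With normexp and quantile normalization, Htr2a and Htr2c exceeded the same error, but that error was not worked out for normexp values. The normexp count is therefore not like for like. Leaving out the scaling lowers every log2 ratio by the same amount. By construction this moved Htr1a, Htr2a and Htr3a toward 0 and Htr2c away from it. None of these 4 passed 1.5-fold, a limit that 5.8% of all names passed. The share of all names past their own scanner error was not counted, so 4 of 8 cannot be set against it.

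**Figure D3:**
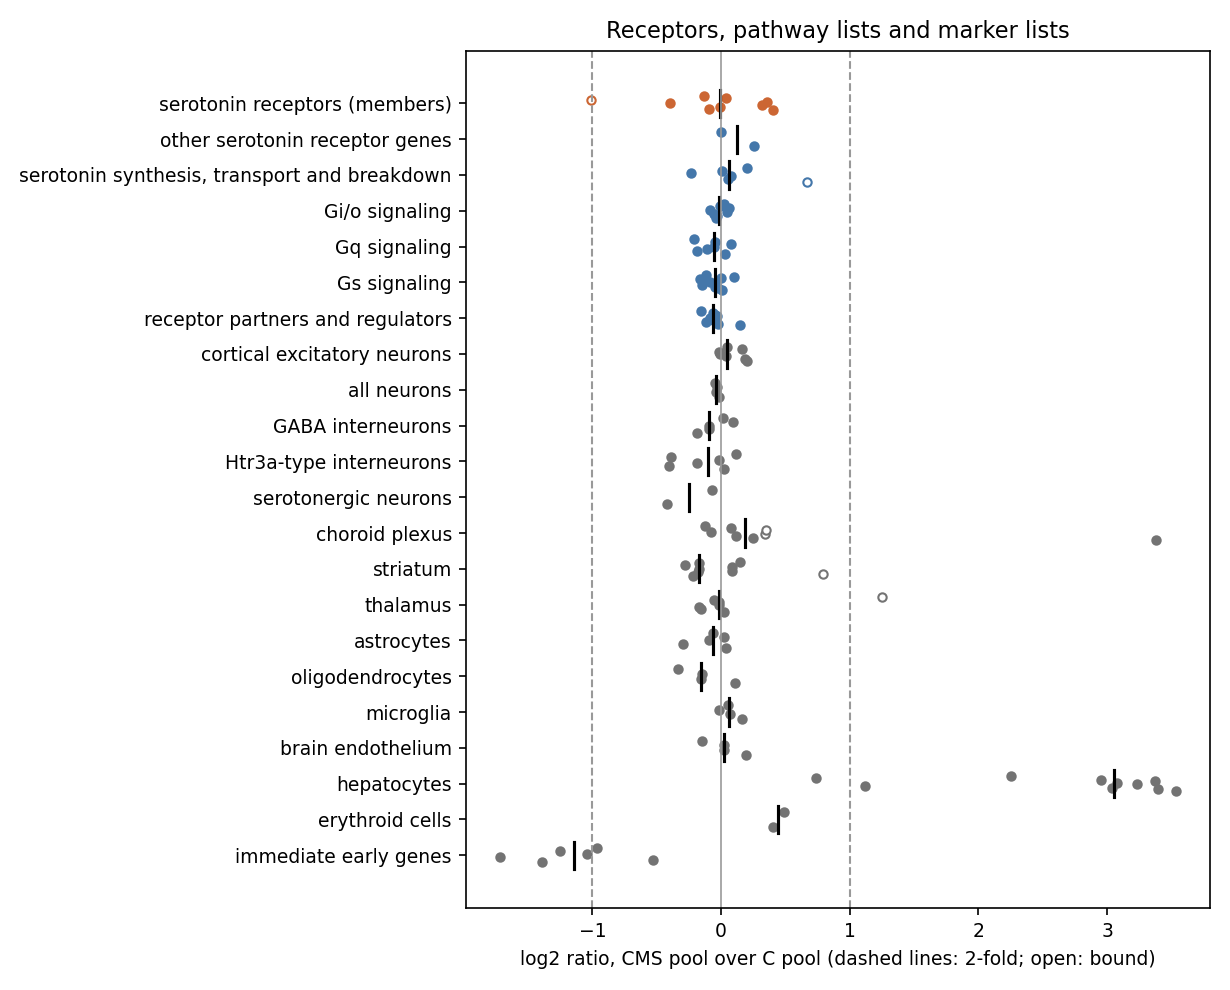
Log2 ratio of CMS over C for each gene with a ratio, by list (serotonin receptors in orange, pathway lists in blue, marker lists in gray). Open circles are genes dim in 1 pool, vertical bars are medians and dashed lines mark 2-fold. The axis label calls the open circles bounds, but some of them, Htr4 included, are plain ratios of their spots. The receptors spread from -1.01 to 0.40 around a median of -0.01, the signaling lists lie within -0.21 to 0.15, and the hepatocyte markers and immediate early genes lie far from 0.

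The remaining serotonin receptor genes on the arrays were Htr2b, Htr3b, Htr5a and Htr5b. Htr2b, a Gq-coupled receptor of heart valves and gut, and Htr3b, the partner subunit of Htr3a, were not well above background in either pool. Htr5a, a Gi/o-coupled receptor, read 23.5 and 28.1, a log2 ratio of 0.26 ± 0.42, and Htr5b, its close relative, read 41.2 and 41.0, with a log2 ratio of -0.0038. Neither of these ratios was larger than the scanner error of Htr5a.

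Of 9 genes that make, carry and break down serotonin, 6 had a ratio, with a median log2 ratio of 0.06. Tph1, the serotonin-making enzyme of gut and pineal gland, was detected in the CMS pool alone, with signals of 18.6 and 29.6. The plain ratio of its spots was 1.59-fold higher there. With a dim signal in the C pool, this ratio does not settle whether Tph1 passed 2-fold, and no other gene of the list did. Maob, a mitochondrial enzyme that oxidizes amines, read 1450 in control and 1668 in CMS mice, which gives a log2 ratio of 0.20. Tph2, the serotonin-making enzyme of raphe neurons, Slc6a4, the serotonin transporter, and Slc22a3, a transporter of low affinity, were not well above background in either pool. Tph2 and Slc6a4 are transcribed in cell bodies of the raphe, outside the PFC. Gata3 and En1, transcription factors of serotonergic neurons, were not well above background in either pool, whereas Fev read 63.6 and 47.5 and Lmx1b 272 and 260.

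No gene of the signaling steps downstream of the receptors passed 2-fold. Of the 48 genes in the 6 pathway lists, the other receptors and the serotonin-handling genes included, 43 had a ratio. None of these had a value or bound past 2-fold in either direction. Since only 2.58% of all names passed 2-fold, lists of this size would hold few such genes in any case. Within 0.13 of 0 on the log2 scale lay 32 of the 43. The share of all names within 0.13 was not counted, so the count of 32 cannot be set against it. The median was -0.02 over 8 genes of Gi/o signaling, -0.05 over 7 of Gq signaling, -0.05 over 11 of Gs signaling and -0.06 over 9 receptor partners and regulators. Gnao1, the alpha subunit of Go, abundant in neurons, read 21906 in control and 22582 in CMS mice, which gives a log2 ratio of 0.04. Itpr1, the calcium channel opened after phospholipase C, had -0.04, Gnas, the Gs subunit, had 0.0034, and Rgs4, which speeds the shutting off of Gi/o and Gq proteins, had -0.06. Adarb1, one of the enzymes that edit the Htr2c transcript, had -0.05, and S100a10, which brings Htr1b and Htr4 to the cell surface, had 0.15.

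The pools differed in other respects, which stand beside these values. The listed markers of cortical excitatory neurons were all well above background in both pools, 7 of 7, with a median log2 ratio of 0.05, and those of all neurons had -0.04. Hepatocyte markers were past 2-fold higher in the CMS pool for 9 of 10 genes, with a summed signal of 8318 in control and 73579 in CMS mice. Immediate early genes were past 2-fold lower for 4 of 6, with a median of -1.15, and the 2 erythroid markers on the arrays had a median of 0.45. Gbx2, of the 7 thalamic markers, was higher in CMS mice by at least 2.38-fold, and the median of that list was -0.02. The part of these differences in the receptor values was not tested.

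**Figure D4:**
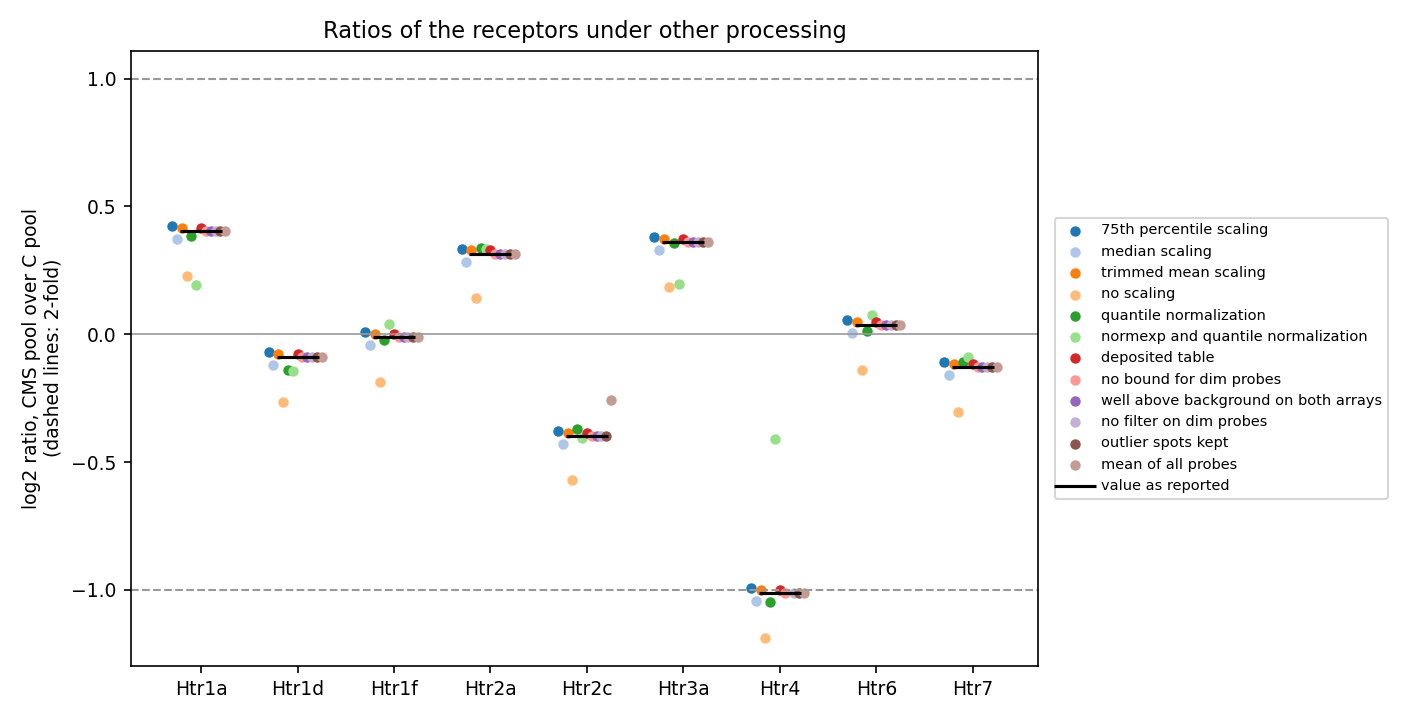
Log2 ratio of CMS over C of the 9 receptor genes with a ratio, as reported (black bars) and under 12 alternative processings (colored points). Dashed lines mark 2-fold. The points of each gene lie together except those with no scaling, which sit lower, and those with normexp correction, where Htr4 moves to -0.41, and Htr2c with the mean of all probes, at -0.26.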

How the data were processed

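The authors extracted RNA of the PFC, pooled it by group, labeled it with Cy3 and read the arrays with Agilent Feature Extraction 10.10.1.1. The deposited scanner files hold background-subtracted, spatially detrended signal intensities, their error estimates, median pixel intensities and flags of 0 or 1 for detection (other values), with no scaling between arrays. The deposited value table holds the same intensities multiplied by 1 factor per array, 1.80 and 2.05, which sets the mean to 2500 once 2% of spots at each end are left out.

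Control spots and outlier spots were left out (130 and 133), spots of a probe were averaged, and arrays were scaled to a mean of 2500. A probe was well above background where 0.5 or more of its spots were flagged so. A probe dim in 1 pool took its own signal or the lowest one well above background, whichever was higher. Its ratio is a bound only where the lowest detected signal was taken, and otherwise it is the plain ratio of its spots. For genes with several probes, the brightest was used and all receptor probes are given. Calls were ratios above 2 or below 0.5. Accessions were named through the RefSeq table of GRCm38.p6, for 30740 of 59305 spots, and a probe without a symbol kept the identifier of the design as its name. Among the 16270 names with a ratio and a symbol, 2.71% passed 2-fold. The array design used another build, so no coordinates are given.

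The genes described, the pathway lists and the marker lists were chosen with earlier results of these data known. The rule named every receptor, the brightest gene of each list, genes past 2-fold and genes dim in both pools. For most marker lists it was not followed, and these are given mainly as counts. Adora2a, Drd2, Reln, Npas1, Fev, Lmx1b, Tph1, Htr5a, Adarb1 and S100a10 were chosen after their values were seen. Hbb-b1 was not matched on the arrays. The 12 alternatives changed the scaling, the background correction, the treatment of dim probes, the filter and the choice of probe, and for counts of genes the fold limit and the rule on spots were varied too. The calling was tested on simulated arrays, with changes larger than 2-fold planted only in bright genes well above background in both pools. Recovery of a change in a probe as dim as that of Htr4 was not tested. Calculations used Python 3.11.15, numpy 2.4.6, pandas 2.3.3 and limma 3.58.1 in R 4.3.3. The number of arrays limits the precision.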

Additional observations from a re-analysis of the deposited data

How the results depend on the processing

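With 1 array per group, no array could be left out. No paired analysis was possible because each pool was read once. Normexp was run on median pixel intensities with an offset of 50, which shrinks ratios of dim probes, and was followed by quantile normalization. Directions of Htr1a, Htr1d, Htr2a, Htr2c, Htr3a, Htr4 and Htr7 held under every alternative that gave a value, and those of Htr1f and Htr6, which lay near 0, turned with the scaling or normalization. Several alternatives could not move a gene with a single detected spot, and the deposited table repeats the trimmed mean scaling. Under the alternatives, 94 values of single receptors stayed within 0.13 of those reported and 13 moved, 9 of them with no scaling. The number of receptors past 2-fold was 0 with scaling to the 75th percentile, 0 under normexp, 0 for probes well above background in both pools, where Htr4 has no ratio by construction, and 2 with no filter on dim probes, where Htr1b joins Htr4. The number of names past 2-fold, 699, was 303 under normexp, 338 for probes above background in both pools, 1090 with no bound for dim probes, 2562 with no filter and 1573 at 1.5-fold. Of these, 77.1% were higher, against 87.5% under normexp, 87% for probes above background in both pools, 62.9% with no scaling and 58.3% with no filter.

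With no scaling the median of all names moved from -0.03 to -0.20, by construction. The receptor median was then -0.19, and the list medians were -0.046 for the other receptors, -0.11 for serotonin synthesis, transport and breakdown, -0.19 for Gi/o signaling, -0.23 for Gq signaling, -0.22 for Gs signaling and -0.23 for receptor partners. With no filter, the median of the other receptors was -0.0077. Other causes of these moves were not tested. Signal over background limits Htr1b, Htr1d and Htr4 most.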
